A study of Mus musculus with 15 samples.

Results

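Metallothionein and NRF2 oxidative stress genes were followed in embryonic mouse lung as 10 genes chosen by symbol: the metallothioneins Mt1 and Mt2, and Hmox1, Nqo1, Gclc, Gclm, Txnrd1, Srxn1, Gsr and Slc7a11. They are 10 of the 23420 genes in the deposited count tables, and all 10 passed the filter on low counts in the cultured libraries, in the fresh libraries and in all 15 libraries together. The genes were picked by symbol, and earlier results of these data were known when genes and lists were chosen. RNA sequencing counts were available for 5 groups of 3 libraries from wildtype lungs of the CD1 strain. Fresh lungs were taken at embryonic days E12.5, E13.5 and E14.5, and explants were taken at E12.5 and kept ex vivo for 48 h at low or at high transmural pressure, the pressure across the airway wall. Each library came from a pool of whole lungs, 6 per pool at E12.5 and at low pressure and 3 per pool in the other groups. The sources used here do not state the pressures in physical units. Nothing in the labels says whether replicates came from separate litters or days, so a p-value reflects how much these pools varied and no more.

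NRF2, encoded by Nfe2l2, is a transcription factor that KEAP1 holds in the cytoplasm and hands to a ubiquitin ligase built on CUL3. When reactive compounds modify KEAP1, NRF2 escapes, pairs with small MAF proteins and binds antioxidant response elements near genes of glutathione and thioredoxin metabolism and of quinone and haem breakdown, while BACH1 represses several of the same genes, Hmox1 above all. Metallothioneins are small cysteine-rich proteins that bind zinc and copper, and the zinc sensor MTF1 activates their genes through metal response elements. In lung these genes are known for protection against oxidants and inhaled metals.

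Promoter windows were searched for core elements of both pathways. RefSeq promoter entries (build GRCm38.p6) were found for 7 of the 10 genes, with 9 promoters in all. Hmox1, Gclc and Gsr had no entry. Both strands of the 250 bases before and 50 bases after each start were searched for the metal response core, TGCACNC or TGCGCNC, and the antioxidant response core, TGACNNNGC. The 250 bases before the start are printed 5′ to 3′ for Mt1 and Mt2, the metal-binding pair, for Gclm, which was lower in culture than in fresh lung, and for the Txnrd1 promoter with a match. Capitals mark the matches, on either strand.
Mt1, chr8:94178839-94179088, plus strand: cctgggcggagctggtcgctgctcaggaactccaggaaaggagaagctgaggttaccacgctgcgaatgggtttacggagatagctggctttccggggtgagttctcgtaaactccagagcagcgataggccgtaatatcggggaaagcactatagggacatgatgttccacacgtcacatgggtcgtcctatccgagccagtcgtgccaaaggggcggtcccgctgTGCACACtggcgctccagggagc
Mt2, chr8:94172368-94172617, plus strand: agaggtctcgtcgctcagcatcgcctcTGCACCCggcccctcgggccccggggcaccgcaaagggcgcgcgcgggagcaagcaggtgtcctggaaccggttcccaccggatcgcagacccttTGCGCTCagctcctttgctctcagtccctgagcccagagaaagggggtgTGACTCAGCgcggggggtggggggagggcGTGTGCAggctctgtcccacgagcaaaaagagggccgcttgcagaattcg
Gclm, chr3:122245307-122245556, plus strand: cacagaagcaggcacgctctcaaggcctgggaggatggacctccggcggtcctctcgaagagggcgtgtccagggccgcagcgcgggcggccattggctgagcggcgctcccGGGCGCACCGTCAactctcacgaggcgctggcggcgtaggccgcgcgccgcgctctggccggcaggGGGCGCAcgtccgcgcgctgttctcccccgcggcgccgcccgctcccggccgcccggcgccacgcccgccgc
Txnrd1, chr10:82858956-82859205, plus strand: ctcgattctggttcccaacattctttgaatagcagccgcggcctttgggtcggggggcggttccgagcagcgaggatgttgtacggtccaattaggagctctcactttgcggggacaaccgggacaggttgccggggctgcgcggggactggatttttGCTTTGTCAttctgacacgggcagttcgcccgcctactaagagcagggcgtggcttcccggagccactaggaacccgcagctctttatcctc
The full Mt2 window held 4 metal response cores, a number reached by 0.52% of the 32851 mouse promoters searched in the same way. Of all promoters, not matched for GC content, 7.11% held 2 or more, and no share was computed for 3 or more. The Mt1 and Gclm windows held 3 each. Only some of these lie in the printed stretch, because 2 of the Mt1 matches, 1 of the Mt2 matches and 1 of the Gclm matches begin after the start. An antioxidant response core was found once each in Mt2, Gclm and Srxn1 and in 1 of the 3 Txnrd1 promoters, against 12.4% of all promoters. The Mt2 match, TGACTCAGC, also contains the AP-1 motif TGACTCA, and in Gclm a metal and an antioxidant match share bases. The Nqo1 and Slc7a11 windows held neither core. These matches are descriptions of letters in a window, and they depend on the start given in each entry. Bases beyond the window on either side, other starts and enhancers farther away were not searched. A core missing from a window can therefore lie close by.

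Levels are given as CPM, counts scaled to library size, on 1 scale set by TMM normalisation over all 15 libraries, and fold changes come from edgeR fits to the counts of the libraries compared. Library totals were 31843739 to 44341263 in culture and 18837343 to 21955244 in fresh lung. Replicate 1 of every fresh stage stood apart: ribosomal protein genes took 3.57 to 4.34% of its reads, against 1.75 to 2.22% in fresh replicates 2 and 3. The same share was 1.92 to 2.19% at low pressure and 3.05 to 3.36% at high pressure. Low pressure replicate 3 had 14637 genes detected, against 16509 to 16726 in the other cultured libraries. Epithelial, mesenchymal, endothelial, mesothelial and macrophage markers were all detected in every group, as in whole lung.

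Per kilobase of transcript, Txnrd1 was the most abundant of the 10 genes in every group, with a mean of 77.5 CPM per kb at E12.5, and Slc7a11 the least, with 0.332 CPM per kb. At high pressure Hmox1 stood second with 54.7 CPM per kb, close to Txnrd1 with 59.5. The means of Mt1 and Mt2 at E12.5 were 4.75 and 4.28 CPM per kb, which is low beside Gsr with 26.7 and Gclc with 17.2. Each length is that of the longest annotated protein-coding transcript, 1085 bases for Mt1 and 511 for Mt2. A shorter length would give a higher value. All 10 genes are shown library by library in the plot of levels.

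**Figure D1:**
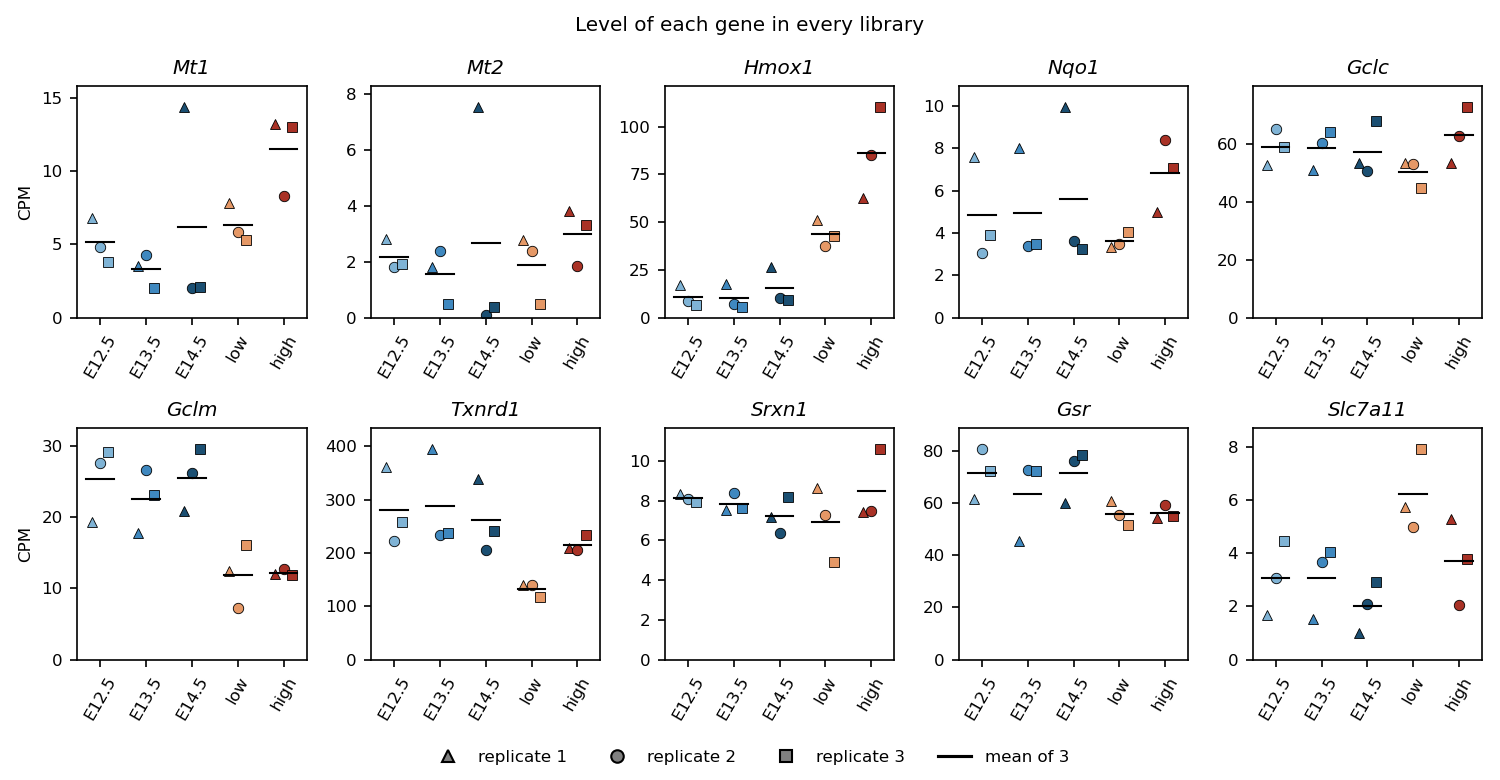
CPM of each gene (vertical axes, linear, from 0) in every library of the 5 groups (horizontal axes), with 1 symbol per replicate number and a line at the mean of 3. Hmox1 climbs from 5.62 to 26.4 CPM in fresh lung to 62.5 to 110.2 CPM at high pressure, Gclm is lower in all 6 cultured libraries than in any fresh one, and replicate 1 sits apart in fresh lung for several genes.

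At high against low pressure, the comparison of the 2 cultured groups, 4 of the 10 genes rose and none fell. The 4 were Mt1, Hmox1, Nqo1 and Txnrd1, and each of them was higher in all 3 high pressure libraries than in any low pressure one. Among all 14937 genes tested, 26.1% were called at an adjusted p under 0.05 by edgeR's quasi-likelihood test, 14.0% as higher and 12.2% as lower. The median log2 fold change of the 10 genes was 0.50, beside 0.01 over all genes. Of 14940 genes, 24.5% had all high pressure values above all low pressure values. With offsets for GC content and transcript length added to the fit, 2 of the 10 genes were called, Hmox1 and Txnrd1, beside 19.8% of all genes. In 1 fit of all 15 libraries edgeR called none of the 10, with Txnrd1 nearest at an adjusted p of 0.0958; 1 of the 10 and 3713 genes in all had an unadjusted p under 0.05 there, and 1121 genes were called. Libraries were made from whole lungs, so fewer cells of a type and less RNA per cell cannot be told apart in any of these values. Pool size, 6 lungs at low and 3 at high pressure, cannot be told apart from pressure either. The ribosomal protein share was also larger at high pressure, as in fresh replicate 1. That replicate was highest at every stage for Hmox1, Nqo1 and Txnrd1. It was lowest for Slc7a11, and also for Gclm and Gsr, which lay near 0 here. The part of this library difference in the values was not tested.

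Mt1 (ENSMUSG00000031765, chr8:94179082-94180327, plus strand, mm10) encodes a metallothionein made in most tissues. Its level was 7.82, 5.85 and 5.27 CPM in low pressure replicates 1, 2 and 3, and 13.2, 8.29 and 13.0 CPM at high pressure. The groups do not overlap, and high pressure replicate 2 is nearest to the low pressure libraries. The log2 fold change was 0.87 ± 0.24 (SE, n = 3 and 3), with an adjusted p of 0.0312 by edgeR. This call was lost with the GC and length offsets, where the change was 0.48 (adjusted p = 0.189), and when low pressure replicate 2 (adjusted p = 0.0878), high pressure replicate 1 (0.112) or high pressure replicate 3 (0.121) was left out.

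Mt2 lies just upstream of Mt1 on the same strand (chr8:94172664-94173568) and encodes the other widely expressed metallothionein. It measured 2.76, 2.36 and 0.479 CPM at low pressure and 3.80, 1.84 and 3.32 CPM at high pressure. These ranges overlap, and the low pressure group is spread by replicate 3. The log2 difference of 0.68 ± 0.59 (SE) did not pass the test (edgeR, adjusted p = 0.430). With the GC and length offsets it was 0.15 (edgeR, adjusted p = 0.876). Mt1 and Mt2 are close paralogs, and 432 bases of Mt2 exons overlap an antisense gene on the other strand. How reads shared between such genes were counted is not stated in the labels.

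Hmox1 (ENSMUSG00000005413, chr8:75093621-75100589, plus strand) encodes haem oxygenase 1, which opens haem to biliverdin, iron and carbon monoxide. It measured 51.0, 37.4 and 42.5 CPM at low pressure and 62.5, 85.0 and 110.2 CPM at high pressure. The 2 groups do not overlap, and high pressure replicate 3 is the highest of all 15 libraries. Its log2 fold change of 0.98 ± 0.20 (SE) had an adjusted p of 0.00976 by edgeR. With the GC and length offsets it was 0.69 (adjusted p = 0.0461), and it stayed called whichever cultured library was left out. It lost its call with replicate block and offsets together (0.66, edgeR, adjusted p = 0.0691) and in the fit of all 15 libraries (adjusted p = 0.226).

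Hmox1 is also made by macrophages, so their markers are given beside it. The summed level of 10 macrophage markers was 155 to 167 CPM at low pressure and 144 to 201 CPM at high pressure, and these ranges overlap. Of the 9 markers tested, Cd68 and Tyrobp rose, Cx3cr1 fell and 6 were not called. None of the 10 was at 0 in any group. Epithelial markers ran higher at high pressure, with a summed 1777 to 1894 CPM against 1020 to 1124 CPM, and 8 of 10 rose while Sox9 fell. Endothelial markers summed to 115 to 266 CPM at high and 261 to 424 CPM at low pressure. These ranges overlap, and 3 of the 10 were called as lower and none as higher. Mesenchymal markers summed to 10290 to 12670 CPM at high and 8615 to 9741 CPM at low pressure, with 3 of 10 called as higher and 4 as lower. Mesothelial markers summed to 397 to 534 CPM at high and 299 to 317 CPM at low pressure, with 3 of 6 called as higher and none as lower. The part of cell composition in the changes of the 10 genes was not tested.

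Nqo1 (ENSMUSG00000003849, chr8:107388225-107403206, minus strand) encodes a quinone reductase that spares cells the redox cycling of quinones. It measured 3.32, 3.48 and 4.02 CPM at low pressure and 5.003, 8.38 and 7.09 CPM at high pressure, without overlap. The log2 fold change was 0.92 ± 0.25 (SE, edgeR, adjusted p = 0.0276). It missed the threshold with the offsets (0.77, adjusted p = 0.0639) and without low pressure replicate 1 (adjusted p = 0.0769) or 2 (0.0778) or high pressure replicate 2 (0.124) or 3 (0.0987).

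Of the 10 genes, the 4 that act in glutathione metabolism, Gclc, Gclm, Gsr and Slc7a11, were not called in this comparison. Gclc, the catalytic subunit of glutamate cysteine ligase, the first enzyme of glutathione synthesis, measured 53.3, 52.9 and 44.5 CPM at low and 53.2, 62.6 and 72.6 CPM at high pressure. High pressure replicate 1 falls inside the low pressure range. Its log2 difference was 0.32 ± 0.13 (SE, edgeR, adjusted p = 0.110).

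Gclm, the modifier subunit of the same enzyme, measured 12.4, 7.20 and 16.1 CPM at low and 12.1, 12.7 and 11.9 CPM at high pressure. The high pressure values all lie within the low pressure range, and the log2 difference was 0.04 ± 0.26 (SE, edgeR, adjusted p = 0.922). With the GC and length offsets it was 0.38 (edgeR, adjusted p = 0.339). Gsr, which reduces oxidised glutathione, measured 60.7, 55.2 and 51.6 CPM at low and 54.1, 59.1 and 54.9 CPM at high pressure. Here too the groups overlap throughout, with a log2 difference of 0.01 ± 0.10 (SE, edgeR, adjusted p = 0.957).

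Slc7a11, the cystine importer that feeds glutathione synthesis, was the one gene of the 10 with a negative value. It measured 5.74, 4.99 and 7.92 CPM at low and 5.30, 2.04 and 3.77 CPM at high pressure, and high pressure replicate 1 lies inside the low pressure range. Its log2 difference was -0.74 ± 0.36 (SE, edgeR, adjusted p = 0.162). With the GC and length offsets it was -0.27 (edgeR, adjusted p = 0.635).

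In the thioredoxin branch, Txnrd1 (ENSMUSG00000020250, chr10:82833951-82897712, plus strand), the cytosolic thioredoxin reductase, had the smallest adjusted p of the 10 genes. It measured 140, 139 and 118 CPM at low pressure and 209, 205 and 233 CPM at high pressure. The groups are separated by a gap wider than the range of either. The log2 fold change was 0.71 ± 0.10 (SE, edgeR, adjusted p = 0.00232), it was 0.77 with the offsets (adjusted p = 0.00266), and the call held whichever cultured library was left out. Srxn1, the sulfiredoxin that repairs overoxidised peroxiredoxins, measured 8.62, 7.28 and 4.92 CPM at low and 7.42, 7.45 and 10.6 CPM at high pressure. These overlap, and the log2 difference of 0.29 ± 0.25 (SE) was not called (edgeR, adjusted p = 0.432).

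**Figure D2:**
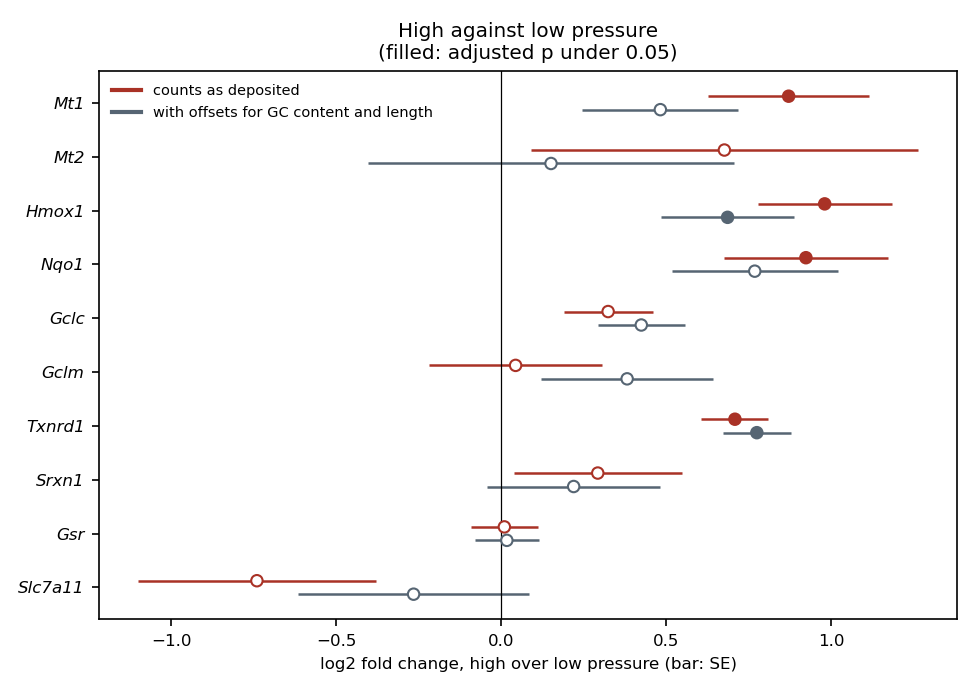
Log2 fold change of high over low pressure (horizontal axis, bars are SE, n = 3 and 3) for the 10 genes, from the counts as deposited and with offsets for GC content and transcript length; filled points have an adjusted p under 0.05. Mt1 moves from 0.87 to 0.48 and Nqo1 from 0.92 to 0.77 with the offsets and lose their calls, while Hmox1 and Txnrd1 keep theirs.

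Among 10 regulators of the 2 pathways, 6 rose at high pressure and 1 fell, with a median log2 fold change of 0.53. Nfe2l2 itself measured 79.2, 69.9 and 64.8 CPM at low and 102, 116 and 126 CPM at high pressure. Every high pressure library is above every low pressure one, and the log2 fold change was 0.69 ± 0.11 (SE, edgeR, adjusted p = 0.00413). Keap1, its inhibitor, rose alongside it by 0.78 ± 0.10 (adjusted p = 0.00178), from 36.8, 39.0 and 44.5 CPM to 68.0, 68.0 and 70.5 CPM. Bach1, the repressor, fell by 0.66 ± 0.11 on the log2 scale (edgeR, adjusted p = 0.00359), from 250, 246 and 201 CPM to 144, 142 and 155 CPM. These 3 calls held with the GC and length offsets, with log2 fold changes of 0.74, 0.65 and -0.42. Sqstm1, whose product p62 binds KEAP1 and draws it into autophagy, rose by 0.64. Nfe2l1, Mafg and Mafk were the other called genes. Mtf1, the zinc sensor, differed by 0.14 (edgeR, adjusted p = 0.341) and by 0.39 with the offsets (adjusted p = 0.0453).

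Of 9 tested zinc transporters and other metallothioneins, none rose, and Slc30a4 and Slc39a10, an exporter and an importer, fell by 0.54 and 0.41 on the log2 scale. With the offsets these were -0.19 (edgeR, adjusted p = 0.271) and -0.13 (adjusted p = 0.374). Of 20 glutathione and cystine genes, 7 rose and 1 fell. Gpx4, which reduces lipid peroxides, rose by 1.03 and Gpx1 by 0.61, whereas Cth, which makes cysteine from cystathionine, fell by 1.14. This count depended on the offsets: only Mgst1, a microsomal glutathione transferase, then rose, by 0.73, and Cth still fell, by 1.16, and the median of the 20 genes went from 0.38 to 0.06. Of 13 thioredoxin and peroxiredoxin genes, 2 rose and 2 fell. Txn1, the substrate of Txnrd1, rose by 1.32, from at most 16.9 CPM in the low pressure libraries to 36.0, 38.8 and 37.6 CPM, while Txnrd3 fell by 0.65.

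The haem and iron list had 5 of 10 tested genes higher and 1 lower. Fth1, the ferritin heavy chain, measured 175.5, 182 and 132 CPM at low and 518, 527 and 546 CPM at high pressure, a log2 rise of 1.70 ± 0.13 (SE, edgeR, adjusted p = 0.000367). Ftl1, the light chain, rose by 0.99, and Slc40a1, the iron exporter ferroportin, by 0.72. Tfrc, the transferrin receptor, which brings iron in, fell by 1.72 on the log2 scale (edgeR, adjusted p = 0.00209). It measured 364, 542 and 255 CPM at low and 110, 117 and 125 CPM at high pressure. All 4 kept their calls with the offsets, at 1.38, 0.45, 0.91 and -1.36. Hmox1, Fth1, Ftl1 and Slc40a1 were thus higher, and Tfrc lower, in the same libraries. Hmox2 and Blvrb were also called as higher. The remaining 4 tested genes of the list, without the offsets, were not called. With the offsets Blvrb lost its call, Hmox2 kept it and Fech was called as higher.

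Further NRF2 targets of detoxification were mixed: of 15 tested, Cbr3, Ephx1 and Sod1 rose and Abcc1 fell, with a median of 0.04, and Ephx1 and Abcc1 were not called with the offsets. Cbr3, a carbonyl reductase, rose by 2.49 ± 0.42 (SE, edgeR, adjusted p = 0.00454), from 0.527, 0.416 and 0.575 CPM to 2.26, 3.83 and 2.44 CPM. Of 9 genes that supply NADPH, Taldo1 rose by 1.38 and Shmt2 fell by 0.59. Among 10 targets of ATF4, another stress factor, which also activates Slc7a11, Atf4 itself and Psat1 rose and Asns and Sesn2 fell. Of 10 glucocorticoid response genes none rose and Fkbp5 and Hif3a fell. With the offsets Atf4 and Hif3a were not called, while Nr3c1 and Klf9 were called as higher and Dusp1 as lower. The plot of related genes shows each list.

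**Figure D3:**
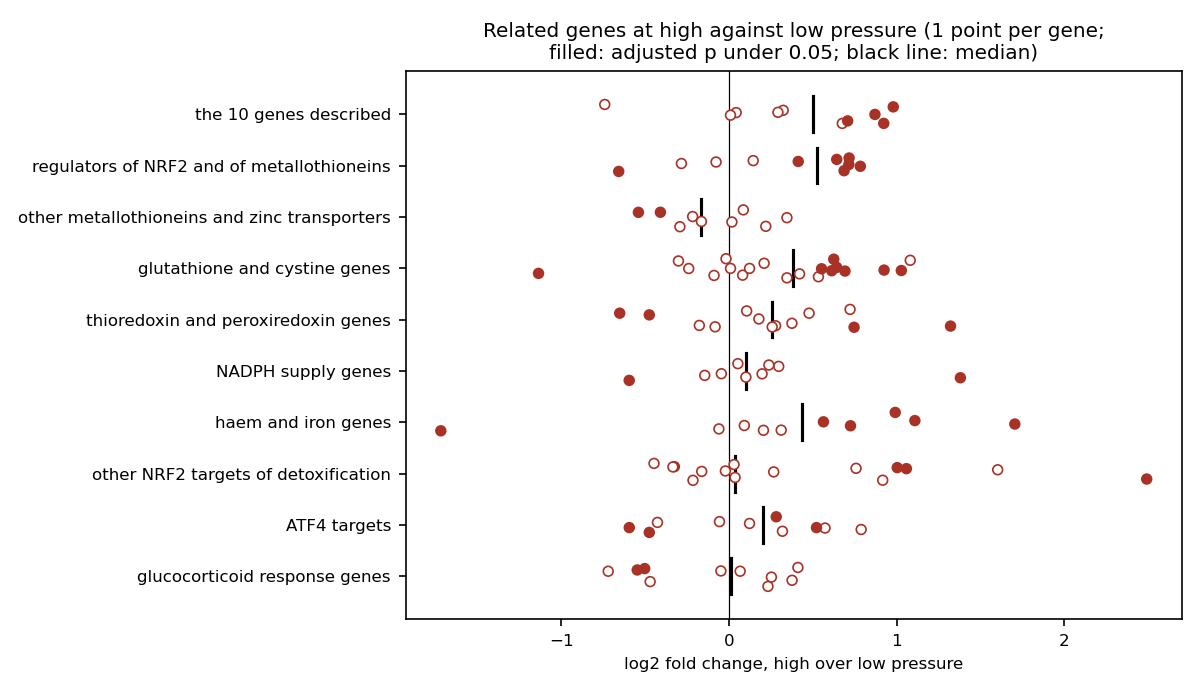
Log2 fold change of high over low pressure (horizontal axis) for the 10 genes and for 9 lists of related genes (rows), 1 point per tested gene, filled where the adjusted p is under 0.05, with a line at each list's median. Regulators have a median of 0.53 with Bach1 alone called as lower, and haem and iron genes run from Tfrc at -1.72 to Fth1 at 1.70.

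Fresh lungs give the course of the same genes in vivo over the days that culture spans. None of the 10 genes was called between any pair of stages, but neither was any other: edgeR called 0 of 14242 genes, or 0%, for E13.5 against E12.5, E14.5 against E13.5 and E14.5 against E12.5. At an unadjusted p under 0.05 the counts were 123, 977 and 1328 genes, none of them among the 10, and DESeq2 called 0, 293 and 491 genes, again none of the 10. No gene was called either in the difference between the second and first day, where 233 genes had an unadjusted p under 0.05, DESeq2 called 4, and none of the 10 was among them. The spread within a stage was set largely by replicate 1. It had the highest value at all 3 stages for Hmox1, Nqo1 and Txnrd1, and the lowest at all 3 for Gclm, Gsr and Slc7a11. Of the 13169 genes that averaged 1 CPM or more in fresh lung, 36.5% had replicate 1 highest at every stage and 34.4% lowest, so this is common among genes at large.

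Hmox1 measured 16.8, 8.85 and 6.36 CPM at E12.5, 17.5, 7.18 and 5.62 CPM at E13.5 and 26.4, 10.03 and 9.33 CPM at E14.5. The stages overlap, yet each replicate number is higher at E14.5 than at E13.5. Replicate 1 deviated alike at every stage, while replicates 2 and 3 were as alike across numbers as within them. The data thus do not show that replicates 2 and 3 pair by number. Because of replicate 1, the fit was also made with replicate number as a block. Hmox1 was then called, with a log2 rise of 0.62 ± 0.13 (SE, edgeR, adjusted p = 0.0213) from E13.5 to E14.5 and of 0.48 ± 0.13 (adjusted p = 0.0392) over both days. With the block 6.01% and 11.0% of all genes were called in these comparisons, and Hmox1 was the only one of the 10. Without replicate 1 at any stage, and without the block, its change was 0.63 (adjusted p = 0.199) from E13.5 to E14.5 and 0.37 (adjusted p = 0.309) over both days, not called in either.

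The metallothioneins had 1 E14.5 library far above the other 2. Mt1 measured 6.83, 4.83 and 3.82 CPM at E12.5, 3.52, 4.31 and 2.04 CPM at E13.5 and 14.4, 2.03 and 2.06 CPM at E14.5. Mt2 measured 2.80, 1.82 and 1.93 CPM, then 1.81, 2.39 and 0.497 CPM, then 7.54, 0.104 and 0.380 CPM. At E14.5 these Mt2 values rest on 153, 2 and 7 reads. The E12.5 to E14.5 direction of both genes turned on replicate 1. With it, the log2 differences were 0.28 ± 0.74 for Mt1 and 0.32 ± 1.17 for Mt2 (SE, edgeR, adjusted p = 0.99997 for both). Without it at every stage they were -1.06 ± 0.35 (adjusted p = 0.0925) and -2.92 ± 0.83 (adjusted p = 0.0696), still not called, with 7.87% of all genes called.

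Nqo1 measured 7.59, 3.05 and 3.92 CPM at E12.5, 8.004, 3.40 and 3.48 CPM at E13.5 and 9.96, 3.64 and 3.26 CPM at E14.5, with replicate 1 alone above 4 at each stage. Txnrd1 behaved in the same way, at 362, 223 and 258 CPM, 395, 233 and 238 CPM, and 340, 205 and 241 CPM. For these genes the gap between replicate 1 and the other 2 was wider than any difference between stage means. Slc7a11 showed the opposite, with replicate 1 lowest: 1.66, 3.05 and 4.48 CPM at E12.5, 1.51, 3.67 and 4.03 CPM at E13.5 and 0.986, 2.08 and 2.93 CPM at E14.5.

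Gclm measured 19.4, 27.7 and 29.3 CPM at E12.5, 17.8, 26.7 and 23.1 CPM at E13.5 and 20.9, 26.3 and 29.6 CPM at E14.5. Gsr measured 61.3, 80.6 and 72.3 CPM, then 45.4, 72.7 and 72.2 CPM, then 59.7, 75.9 and 78.3 CPM. In both, the ranges of the stages overlap. Within each replicate number, Gsr was lowest at E13.5, and with the block its log2 differences were -0.20 ± 0.09 from E12.5 to E13.5 (SE, edgeR, adjusted p = 0.99953) and 0.21 ± 0.09 from E13.5 to E14.5 (adjusted p = 0.1996), not called in either. Gclc stayed between 50.5 and 67.7 CPM and Srxn1 between 6.34 and 8.40 CPM over the 9 fresh libraries.

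Each cultured group was also compared with fresh E12.5 lung, the age at which explants were taken. These 2 comparisons share the E12.5 libraries, and culture itself, the 48 h of age, the separate count table and the deeper sequencing cannot be told apart in them. Against E12.5, 1 of the 10 genes rose and 2 fell at low pressure (32.5% of 14940 genes were called, 17.6% as higher and 14.9% as lower), and 1 rose and 1 fell at high pressure (43.6% called, 22.3% higher and 21.3% lower). The median log2 fold changes of the 10 genes were -0.23 and 0.18, beside -0.02 and -0.02 over all genes. Without overlap with E12.5, 24.0% of 14940 genes lay above it at low pressure and 22.2% below. The shares were 30.2% and 29.2% at high pressure. Of the 10 genes, Hmox1 and Slc7a11 lay above at low pressure and Gclm, Txnrd1 and Gsr below. At high pressure Mt1 and Hmox1 lay above and Gclm and Gsr below.

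Hmox1 was the gene that rose in both. All 6 cultured libraries were above all 9 fresh ones, the lowest cultured value being 37.4 CPM and the highest fresh value 26.4 CPM. Its log2 fold change against E12.5 was 2.03 ± 0.50 at low pressure (SE, edgeR, adjusted p = 0.00745) and 3.01 ± 0.52 at high pressure (adjusted p = 0.000509). Without fresh replicate 1 these were 2.49 and 3.48. Macrophage markers summed to 73.6 to 150 CPM at E12.5, 155 to 167 CPM at low pressure and 144 to 201 CPM at high pressure. The high pressure range overlaps that of E12.5, and the low pressure range does not. Of 9 tested, 6 rose and Mrc1 fell at low pressure, while 5 rose and Cx3cr1 fell at high pressure. Erythroid markers, a sign of blood cells rich in haem, went from 2911 to 3596 CPM at E12.5 to 249 to 607 CPM at low and 374 to 517 CPM at high pressure, and all 8 tested fell in both. In fresh lung their sum was also lower at E14.5, at 514 to 1369 CPM. The part of either cell type in the Hmox1 level was not tested.

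Gclm was the gene that fell in both. All 6 cultured values, from 7.20 to 16.1 CPM, lie below the lowest fresh value of 17.8 CPM. The log2 fold changes were -1.10 ± 0.27 at low pressure (SE, edgeR, adjusted p = 0.00744) and -1.06 ± 0.27 at high pressure (adjusted p = 0.00660). With GC and length offsets the high pressure change was -0.49 and not called (adjusted p = 0.0870). Gclc, its partner subunit, differed by -0.23 and 0.09 and was not called in either, so the 2 subunits of the enzyme did not share a call. Gclm exons overlap an antisense transcript over 296 bases and a processed pseudogene over 244 bases, and reads from these cannot be told apart from its own without strand and multimapping settings.

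Txnrd1 fell at low pressure by 1.09 ± 0.24 on the log2 scale (SE, edgeR, adjusted p = 0.00450), and all low pressure libraries lie below all fresh ones. At high pressure its change was -0.38 ± 0.24 (adjusted p = 0.222). In level, the high pressure libraries at 205 to 233 CPM overlap the E12.5 range of 223 to 362 CPM, while the low pressure ones at 118 to 140 CPM do not.

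The remaining genes were not called with all libraries. Slc7a11 lay above every E12.5 value in all 3 low pressure libraries, as did 24.0% of all genes. Its log2 difference was 1.02 ± 0.49 (SE, edgeR, adjusted p = 0.128). It was called with the GC and length offsets, at 1.19 (adjusted p = 0.0139) at low pressure and 0.90 (adjusted p = 0.0436) at high pressure, where 36.3% and 44.8% of all genes were called. Leaving out fresh replicate 1 gave calls for 4 genes at low pressure and 5 at high pressure, against 51.8% and 60.3% of all genes called. The added ones were Gsr at -0.48 (adjusted p = 0.00173) at low pressure, and at high pressure Gsr at -0.47 (adjusted p = 0.00147), Mt1 at 1.39 (adjusted p = 0.00253) and Nqo1 at 0.95 (adjusted p = 0.00715). Txnrd1 and Gclm kept the calls they had, and Hmox1 did too.

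**Figure D4:**
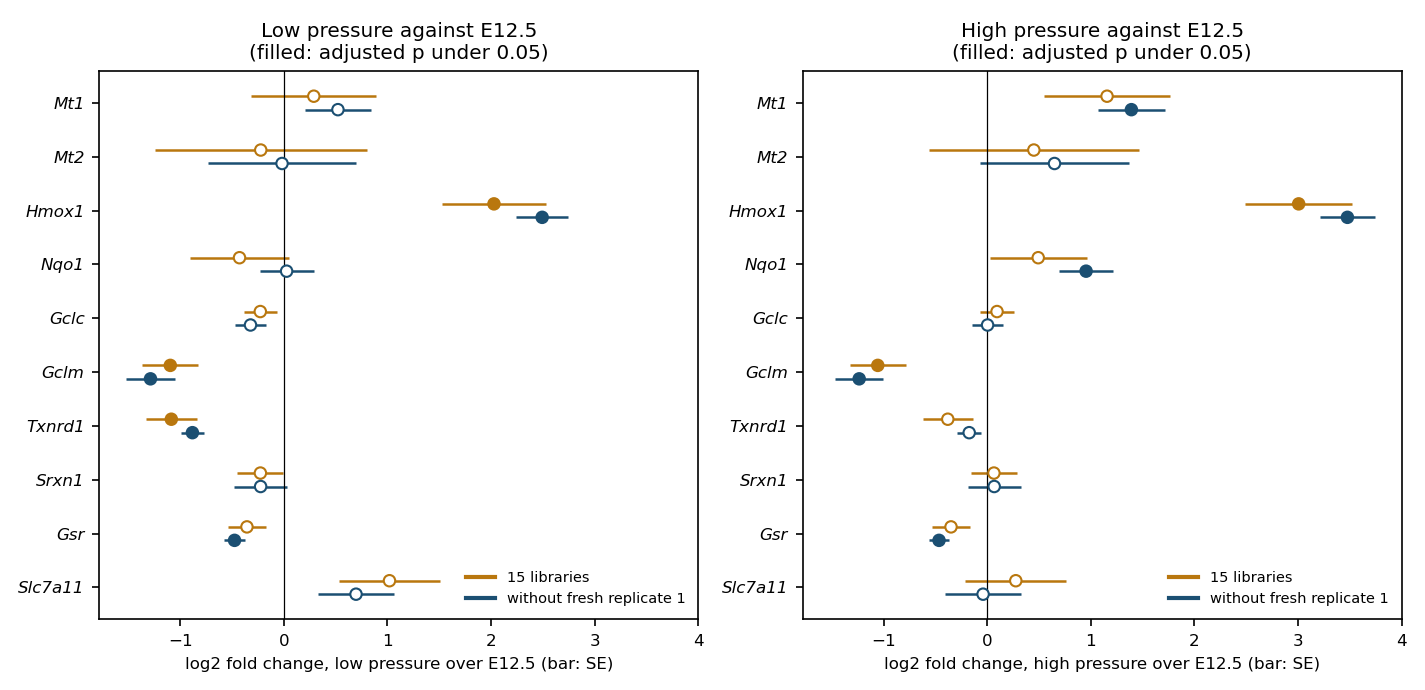
Log2 fold change of low pressure (left) and high pressure (right) over fresh E12.5 lung (horizontal axes, bars are SE) for the 10 genes, with all 15 libraries and without fresh replicate 1; filled points have an adjusted p under 0.05. Hmox1 lies farthest to the right in both panels, at 2.03 and 3.01, Gclm to the left in both at -1.10 and -1.06, and Txnrd1 is called at low pressure with a value of -1.09 and not at high pressure with -0.38.

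Of the 10 regulators, Maff, a small MAF protein, rose at low pressure against E12.5 by 2.93 ± 0.25 (SE, edgeR, adjusted p = 4.55e-06), from 5.26, 3.97 and 5.24 CPM to 41.7, 42.8 and 26.0 CPM, and Cul3 fell by 0.49. At high pressure 7 rose, Nfe2l2 by 0.60 and Keap1 by 0.93 among them, and Cul3 fell. Of all genes, 32.5% were called at low pressure and 43.6% at high pressure. Nfe2l2 at low pressure differed by -0.08 (adjusted p = 0.785). Without fresh replicate 1 the regulators numbered 5 higher at low pressure, Keap1 among them at 0.60, and 8 at high pressure. Cul3 was then called as lower at low pressure, and Cul3 and Bach1 at high pressure. In that fit 51.8% of all genes were called at low pressure and 60.3% at high pressure. With GC and length offsets 1 regulator rose at low pressure, Maff, and 5 rose at high pressure, Nfe2l2 among them at 0.73, and none fell. The shares of all genes called were 36.3% and 44.8%. Keap1 (0.50, edgeR, adjusted p = 0.0837) and Mtf1 (0.34, adjusted p = 0.146) then lost their calls at high pressure. Cul3 lost its call at both, with values of -0.08 at low pressure and 0.19 at high pressure. Of 10 tested zinc transporters and metallothioneins none rose in either group, 2 fell at low pressure and 5 at high pressure. The 2 were Slc39a8, a zinc importer, at -1.43 (edgeR, adjusted p = 0.000528) and Slc30a10 at -2.77 (adjusted p = 0.0462).

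Of the 10 genes listed as ATF4 targets, Atf4 itself among them, 6 rose at low pressure and 7 at high pressure. None fell, and the medians were 1.48 and 1.80. Over all genes 17.6% rose and 14.9% fell at low pressure, and 22.3% and 21.3% at high pressure. Chac1, which degrades glutathione, rose by 4.62 ± 0.57 at low pressure (SE, edgeR, adjusted p = 6.15e-05), from 0.190, 0.0912 and 0.203 CPM to 5.09, 4.16 and 2.94 CPM. Trib3 rose by 3.26 and Asns by 1.21. Slc3a2, the partner chain of Slc7a11 at the membrane, rose by 0.76 at low and 0.84 at high pressure. Among glucocorticoid response genes, a pathway that also reaches the metallothioneins, 4 of 10 rose and Fkbp5 fell at low pressure, with Klf9 higher by 3.28 and Per1 by 1.58. Ephx1, an epoxide hydrolase, rose by 3.06 at low pressure, Me1, which makes NADPH, by 1.59 and Txnip, which binds and inhibits thioredoxin, by 2.29. Sod1 fell by 1.40, Txn1 by 1.93 and Nqo2 by 1.45. Of 20 glutathione and cystine genes, 2 rose and 4 fell at low pressure, beside 17.6% and 14.9% of all genes.

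Ordered by mean level over the 5 groups, Hmox1 ran from E13.5 (10.1 CPM) through E12.5 and E14.5 to low pressure (43.6 ± 6.90, SD, n = 3) and high pressure (85.9 ± 23.9), and only the last 2 steps are between groups whose ranges do not overlap. Mt1 ran from E13.5 (3.29 CPM) to high pressure (11.5 ± 2.79), with low pressure (6.31 ± 1.34) next below it and no overlap at that step alone. Only neighbours in the order are compared here. The high pressure range of Mt1 does overlap that of E14.5, where replicate 1 was above every high pressure library. In Gclm the one step without overlap is from high pressure (12.2 ± 0.423) to E13.5 (22.6 ± 4.47), and in Txnrd1 it is from low pressure (132 ± 12.53) to high pressure (216 ± 15.2). For Mt2, Nqo1, Gclc, Srxn1, Gsr and Slc7a11, every pair of neighbours in the order overlaps.

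Genes with the most similar pattern were looked for among the 11153 genes averaging 5 CPM or more, by Pearson's r of log2 CPM, taken separately over the 6 cultured and the 9 fresh libraries and ranked by the smaller of the 2. For Hmox1 these were Glb1 (r = 0.983 and 0.973), Ctsd (0.962 and 0.966) and Vkorc1 (0.970 and 0.954). Glb1 and Ctsd encode lysosomal enzymes. For Slc7a11 they were Fancd2 (0.953 and 0.955), Smcr8 (0.929 and 0.947) and Btaf1 (0.928 and 0.944), and for Mt1 Tuba4a (0.877 and 0.866), Commd3 (0.878 and 0.859) and Plekha3 (0.848 and 0.849). These values describe libraries that share depth, group and, in fresh lung, the difference between replicate 1 and the others.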

How the data were processed

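The authors deposited raw counts per gene in 2 tables, 1 for fresh stages and 1 for cultured lungs, and these counts were used as deposited. Per the submitters' processing notes, cutadapt 1.6, Bowtie 1.1.1, TopHat, HTSeq and DESeq2 were used with build mm10. For the annotation, strand setting and filters, nothing is stated: not given in the sources used here. Columns were matched to samples by title, and 0 were left out.

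Counts were fitted with edgeR 4.0.16 (TMM, filterByExpr, quasi-likelihood test; R 4.3.3), with the 6 cultured, 9 fresh or all 15 libraries, and adjusted by Benjamini-Hochberg over all tested genes with a threshold of 0.05. Alternatives were DESeq2 1.42.0, limma 3.58.1 voom, other scaling, no filter, replicate block, GC content and length offsets (GENCODE annotation, 98.4% of genes), and leaving out libraries. Code was tested on simulated counts. Same-numbered fresh libraries of different stages deviated together (all 9 correlations 0.328 to 0.792, the other 18 pairs -0.677 to 0.547). This set replicate 1 apart (0.734, 0.737 and 0.792). Replicates 2 and 3 were as alike across numbers as within them: E13.5 replicate 2 gave 0.547 with E14.5 replicate 3 and 0.363 with E14.5 replicate 2. The block by number was used as an alternative, and the data do not show that replicates 2 and 3 pair by number. Same-numbered cultured libraries did not deviate together (-0.0151 to 0.0425).

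All 10 genes are named, with 4 regulators (Nfe2l2, Keap1, Bach1, Mtf1), up to 4 genes per list with the smallest p in high against low pressure and in low pressure against E12.5, and 3 genes most alike to Mt1, Hmox1 and Slc7a11. Further list genes are named as those called. Genes and lists were chosen with earlier results of these data known.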

Additional observations from a re-analysis of the deposited data

How the results depend on the processing

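Counts were low for Mt2, with 2 to 153 reads at E14.5, and for Slc7a11, with 20 to 54 reads there, and 3 pools per group limit every comparison. For high against low pressure, 3905 genes and 4 of the 10 were called. Genes numbered 2125 with the replicate block and offsets and 1121 with all 15 libraries in the fit, and 1894 to 6257 with a library left out. Of the 10 genes, 2 were called with offsets, 1, Txnrd1, with block and offsets, and 2 to 4 with a library left out. With all 15 libraries in the fit, where the fresh libraries add their spread, 0 were called. The cultured numbers share only a number, and the replicate block alone kept 4 of the 10 genes and 3137 genes in all. Gsr and Gclm, near 0 with all cultured libraries, changed sign: Gsr was -0.00375 with DESeq2, -0.00377 with its scaling and -0.043 to 0.075 with a library left out, and Gclm was -0.22 to 0.33 with a library left out. Atf4, called as higher at 0.28, lost its call and was -0.0053 with offsets and -0.0057 with block and offsets.

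In fresh lung, where edgeR called 0 genes in each comparison, E13.5 against E12.5 gave 1 gene with the block, with or without offsets. E14.5 against E13.5 gave 293 with DESeq2, 856 with the block, 1111 with block and offsets and 62 without replicate 1. E14.5 against E12.5 gave 491 with DESeq2, 9 without the filter, 38 with offsets, 1561 with the block, 2103 with block and offsets and 1119 without replicate 1. The difference between days gave 4 with DESeq2, 3 with the block, 3 with block and offsets and 1 without replicate 1. Leaving out single libraries gave 0 to 3 genes and 0 of the 10. Of the 10, 1 was called with the block, with or without offsets, in each of the last 2 stage comparisons, and it was Hmox1. The E14.5 against E12.5 difference of Mt1 turned to -0.075 with the block, -0.11 with block and offsets and -1.06 without replicate 1, and ranged from -1.33 to 0.69 with a library left out. For Mt2 these were -0.41, -0.40, -2.92 and -3.15 to 0.84. Hmox1 ranged from -0.14 to 1.04, and from -0.057 to 1.30 against E13.5, and was negative when E14.5 replicate 1 alone was left out.

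Against E12.5, low pressure gave 4857 genes, 7968 without fresh replicate 1 and 3454 to 4988 with a library left out. Mt2 turned to 0.16 with offsets and ranged from -0.60 to 0.23, and Nqo1 turned to 0.027 without fresh replicate 1 and ranged from -0.67 to 0.050. High pressure gave 5 of the 10 genes without fresh replicate 1, and 2 with any single library left out. There Gclc ranged from -0.022 to 0.20, Srxn1 was -0.25 with offsets and ranged from -0.13 to 0.15, and Slc7a11 was -0.041 without fresh replicate 1 and ranged from -0.075 to 0.65. Where not stated, the cause was not tested.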
